A study of Mus musculus with 2 samples.

Results

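The microRNA genes Mir335, Mir483, Mir675, Mir296 and Mir298 lie in or beside imprinted genes outside the Dlk1-Dio3 domain, and they are described here in skeletal muscle of newborn mice. They were taken by name, for their place in the genome, with earlier results of these data known. All 5 were found among the 1973 microRNA genes of the count tables, and all 5 are among the 365 genes that reached 10 counts in each library, called detected below. The 2 libraries hold RNA under 30 bases from skeletal muscle of strain B6NCrl mice at postnatal day 0, untreated as far as the labels say, each from a part of 1 organ of 1 pup. They form 1 group, so no condition is compared with another. The labels number them as biological replicates 1 and 2 but give both the same donor record, and sex was not collected. Spread between them may therefore be partly technical.

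Imprinted genes are expressed mainly from the copy inherited from 1 parent, and many of them act on growth before and after birth. Mest (a hydrolase-like protein) and Igf2 (insulin-like growth factor, a main driver of fetal growth) are expressed from the paternal copy, while H19, a long noncoding RNA abundant in fetal muscle, comes from the maternal copy. The Gnas region makes several transcripts with different parental origin, among them the paternal antisense RNA Nespas. A microRNA is cut from a hairpin in a longer transcript, and its arm of about 22 bases guides silencing of messenger RNAs through its seed, bases 2 to 8. Reads here carry no information on the parental copy, and messenger RNAs of the host genes were not measured.

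Both arms of each hairpin are shown because the tables count a hairpin as 1 gene and do not tell its arms apart, so every level below may come from either. Sequences are RefSeq's on GRCm38.p6, found for 5 of 5 genes, 5′ to 3′, with the seed in capitals.
miR-335-5p: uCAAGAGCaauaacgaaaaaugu
miR-335-3p: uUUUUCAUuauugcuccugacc
miR-483-5p: aAGACGGGagaagagaagggag
miR-483-3p: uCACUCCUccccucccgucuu
miR-298-5p: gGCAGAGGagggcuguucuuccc
miR-298-3p: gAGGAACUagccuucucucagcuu
miR-296-5p: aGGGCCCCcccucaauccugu
miR-296-3p: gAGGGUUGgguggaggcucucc
miR-675-5p: uGGUGCGGaaagggcccacagu
miR-675-3p: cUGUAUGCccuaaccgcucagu

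The 10 arms have 10 different seeds, and the table lists 0 other mouse genes with any of them. A seed held by 1 gene is common in that table, at 84.5% of its 1398 seeds. Between arms of different genes the longest common run was 7 bases, in miR-296-5p and miR-675-5p. None of the 5 genes shares a stretch of 20 bases with another microRNA gene of the tables, and no complete arm was found on either strand of a GENCODE transcript, apart from genes that overlap the hairpin. This bears on the levels because the tables set apart reads that fit several places. The rest of the genome was not searched.

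The hairpins of the most and the least abundant of the 5 genes are printed with both arms in capitals.
Mir335: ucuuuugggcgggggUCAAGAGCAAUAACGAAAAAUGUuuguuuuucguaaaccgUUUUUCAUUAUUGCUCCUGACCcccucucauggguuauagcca
Mir675: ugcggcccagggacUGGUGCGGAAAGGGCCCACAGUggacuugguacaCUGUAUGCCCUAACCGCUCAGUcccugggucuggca

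Mir335, an arm of which has been studied as a regulator of mesenchymal stem cells and of tumour spread, has the identifier ENSMUSG00000065501 and lies at chr6:30741299-30741396 on the plus strand (GRCm38). It sits in an intron of all 7 Mest transcripts that span it, on the strand of Mest. Its hairpin of 98 bases has a GC content of 42.9%, below that of most hairpins (18.8% of 1005 are lower). Mir483, whose arms have been studied in growth and fat storage, has the identifier ENSMUSG00000070140 and lies at chr7:142654924-142654996 on the minus strand. It is in an intron of all 7 Igf2 transcripts that span it and of the overlapping gene Gm49394, with 73 bases and a GC content of 58.9%.

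Mir675 (ENSMUSG00000076275) lies at chr7:142577064-142577147 on the minus strand, 77.8 kb from Mir483. It falls in an exon of 3 of the 4 H19 transcripts that span it and in an intron of the other, so short fragments of H19 itself and products of the hairpin cannot be told apart in its count. Mir298 (ENSMUSG00000065410) at chr2:174267504-174267585 and Mir296 (ENSMUSG00000065521) at chr2:174267047-174267125 share the minus strand with 378 bases between them. Neither lies inside an annotated gene of another class. The nearest such gene is Nespas on the same strand, which ends 13.7 kb before Mir298 and 14.1 kb before Mir296, and Gnas lies on the opposite strand 16.7 and 17.2 kb away.

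The total of annotated-strand microRNA counts was 7955914 in replicate 1 and 10816295 in replicate 2, and levels are given as counts scaled to that total (CPM). A level of 3 counts, the most that a count of 0 allows, equals 0.377 and 0.277 CPM. Of the marker lists, the 4 skeletal muscle microRNAs were all detected and summed to 109261 and 122717 CPM. Nearly all of this was Mir206 (107144 and 120690 CPM), and Mir133b shares a stretch of 20 bases with another microRNA gene. None of the 5 neural genes listed was detected. All 5 of these share a stretch of 20 bases with another microRNA gene, so reads of them may have been set apart and their low counts do not show absence. Endothelial Mir126a and the 2 smooth muscle genes were high too (44986 and 47428 CPM, and 31531 and 28507 CPM). Fewer cells of a type and less RNA per cell cannot be told apart in such bulk samples.

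Mir335 was the most abundant of the 5 genes, with 462151 counts or 58089 CPM in replicate 1 and 431669 counts or 39909 CPM in replicate 2. The 95% exact Poisson intervals, which cover counting error only, were 57922 to 58257 and 39790 to 40028 CPM. Its mean of 48999 CPM ± 12855 (SD, n = 2) made it the fifth of the detected genes, with rank 2 in replicate 1 and rank 8 in replicate 2. The libraries lie apart for this gene by far more than the counting error. The size of the gap depends on the scaling, at 1.46-fold in CPM of library totals and 1.23-fold with the scaling by trimmed means used below. By the latter, Mir296 (1.31-fold) and Mir675 (1.24-fold) differed slightly more, with replicate 2 higher.

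Mir483 came next at 7533 CPM (59928 counts) in replicate 1 and 7508 CPM (81212 counts) in replicate 2, a mean of 7520 ± 17.1 (SD, n = 2) and rank 27. The 2 values nearly coincide, and their counting intervals (7472 to 7593 and 7457 to 7560 CPM) overlap. The nearness holds for CPM of library totals. With the scaling by trimmed means used below, replicate 2 was 1.18-fold higher, and 39.7% of the 365 detected genes had a smaller ratio in either direction.

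Mir298, reported to act on the beta-secretase messenger RNA in mice, had 4860 CPM (38666 counts) and 4773 CPM (51628 counts), a mean of 4817 ± 61.4 (SD, n = 2) and rank 36. Mir296, studied in blood vessel growth and stem cell differentiation, had 2577 CPM (20506 counts) and 2839 CPM (30710 counts), a mean of 2708 ± 185 and rank 54. In CPM of library totals, replicate 1 was the higher library for Mir298 and the lower one for Mir296, each by less than 1.2-fold. With the scaling by trimmed means, replicate 2 was higher for both, 1.16-fold for Mir298 and 1.31-fold for Mir296.

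Mir675, which H19 carries and which has been linked to muscle differentiation and to restraint of growth, stood far below the others. It had 115 CPM (911 counts) in replicate 1 and 120 CPM (1293 counts) in replicate 2, with counting intervals of 107 to 122 and 113 to 126 CPM that overlap. Its mean was 117 CPM ± 3.56 (SD, n = 2) at rank 166, just above the median of detected genes (87.0 CPM).

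The order Mir335, Mir483, Mir298, Mir296, Mir675 was the same in both libraries, and no 2 neighbours in it overlapped. The closest pair was Mir483 and Mir298, whose lowest and highest values were 7508 and 4860 CPM. With 2 libraries an exact permutation test of 2 values against 2 cannot give a two-sided p below 0.333, so the order is a description.

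**Figure D1:**
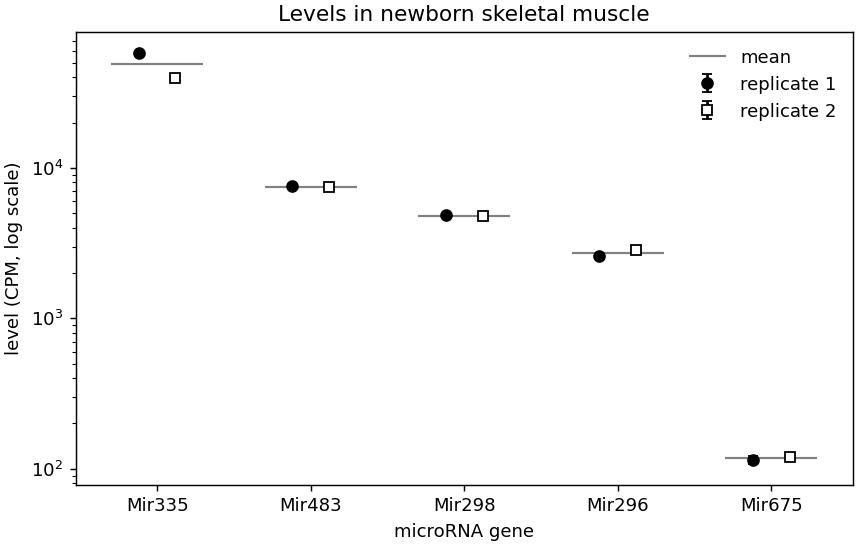
Level of each gene in CPM (log scale) in replicate 1 (filled circles) and replicate 2 (open squares), with 95% Poisson intervals mostly smaller than the symbols and the mean as a grey line. The libraries are visibly apart for Mir335 (58089 and 39909 CPM), and Mir675 lies more than 20-fold below the next gene.

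Ratios between the genes within a library need no scaling. They compare read counts, and how evenly the libraries capture different sequences was not measured. Mir483 exceeded Mir675, its neighbour in the Igf2-H19 region, 65.8-fold in replicate 1 (95% counting interval 61.6 to 70.3) and 62.8-fold in replicate 2 (59.5 to 66.4). The intervals overlap, so the difference between the libraries in this ratio is within counting error. Mir298 exceeded Mir296 1.89-fold (1.85 to 1.92) and 1.68-fold (1.66 to 1.71), an order of the Gnas pair that both libraries share while its size differs beyond counting error.

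Mir483 exceeded Mir298 1.55-fold in replicate 1 and 1.57-fold in replicate 2. The 2 pairs taken as loci were close to equal, with an Igf2-H19 sum of 0.765% and 0.763% of all counts and a Gnas sum of 0.744% and 0.761%. Their ratio was 1.03 in replicate 1 and 1.002 in replicate 2. Among the 10 possible pairs of genes, the 6 without Mir335 had ratios that differed by at most 1.12-fold between the libraries, whereas the 4 with Mir335 differed by 1.43-fold to 1.60-fold. Mir335 exceeded Mir483 7.71-fold (7.65 to 7.78) in replicate 1 and 5.32-fold (5.28 to 5.36) in replicate 2.

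Together the 5 genes took 7.32% of counts in replicate 1 (95% exact Clopper-Pearson interval 7.30 to 7.34) and 5.51% in replicate 2 (5.50 to 5.53). Without Mir335 the share was 1.51% and 1.52%, with intervals that overlap. Mir335 alone supplied 79.4% and 72.4% of the counts of the 5 genes and Mir675 0.156% and 0.217%. Most of the difference in the sum therefore sits in 1 gene.

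By genomic class, Mir335 was the highest and Mir483 the sixth of the 141 detected genes that lie in an intron of a protein-coding gene on the same strand, whose median level was 42.0 CPM. Mir675 was at place 31 of 53 genes in an exon of a noncoding gene, whose median of 297 CPM it did not reach. Mir298 and Mir296 took places 15 and 21 of 108 genes in no annotated gene of their strand (median 109 CPM).

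On their chromosomes the genes differ as much. Mir335 held 79.6% ± 1.56 of all microRNA counts of chromosome 6 (SD, n = 2), where 80 genes are listed and 15 were detected. Mir483 held 52.2% ± 1.16 of those of chromosome 7, and Mir675 0.813% ± 0.0446. On chromosome 2, Mir298 held 6.22% ± 0.0331 and Mir296 3.50% ± 0.265, at places 4 and 5.

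**Figure D2:**
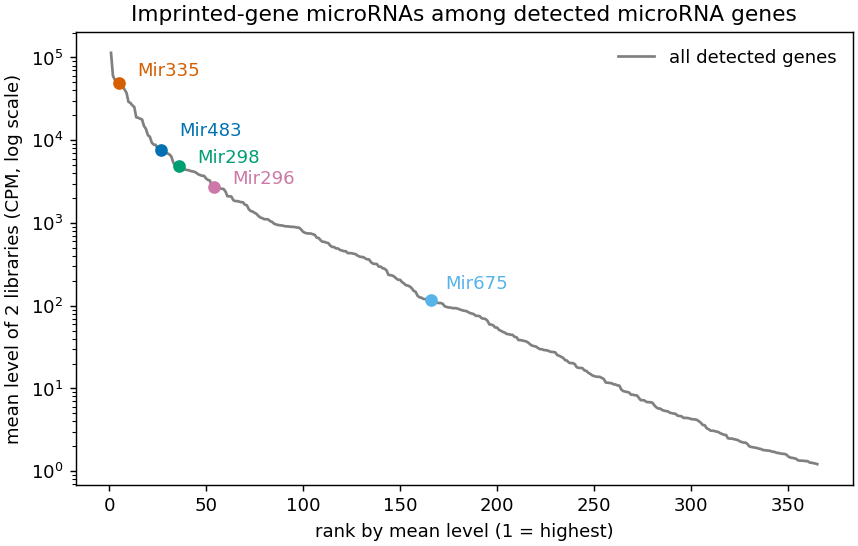
Mean level of the 2 libraries (CPM, log scale) against rank for the 365 detected microRNA genes (grey line), with the imprinted-gene microRNAs as coloured points. Mir335 stands at rank 5, Mir483, Mir298 and Mir296 at 27, 36 and 54, and Mir675 at 166.

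The genes nearest to each in level were named by their distance in log2(CPM + 1) over the 2 libraries. For Mir335 these were Mirlet7i (44577 CPM ± 249, distance 0.41) and the endothelial Mir126a (46207 ± 1727, distance 0.44), SD over n = 2. In CPM of library totals, neither was as far apart between the libraries as Mir335. With the scaling by trimmed means, the log2 ratio of replicate 1 over replicate 2 was -0.23 for Mirlet7i and -0.32 for Mir126a. That of Mir335 was 0.30, so Mir126a was then slightly further apart. For Mir483 they were Mir382 (7856 CPM ± 781) and Mir433 (7808 ± 887), at distances of 0.17 and 0.18.

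Mir298 was nearest to Mir154 (4727 CPM ± 105, distance 0.04) and Mir99b (4932 ± 128, distance 0.07). Mir296 was nearest to Mir134 (2697 ± 354, distance 0.09) and Mir376c (2576 ± 116, distance 0.11), the latter with a stretch of 20 bases shared with another gene. The genes nearest to Mir675 were Mir1306 (116 ± 15.3, distance 0.15) and Mir132 (121 ± 8.70, distance 0.16). With 2 libraries of 1 tissue, nearness is a likeness of level only.

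Other microRNAs of imprinted loci were taken as a list. The Dlk1-Dio3 domain holds a large cluster of maternally expressed microRNAs and was counted here by a window on chromosome 12. It has 58 genes in the tables, of which 49 were detected, led by Mir487b with 60149 CPM ± 7817 (SD, n = 2). It took 36.9% ± 3.55 of counts, 4.71 times the share of the 5 genes in replicate 1 and 7.15 times in replicate 2. The median level was 1779 CPM over its detected genes and 4817 CPM over the 5 genes, against 87.0 CPM over all 365.

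Inside Sfmbt2, an imprinted gene with a large repeated microRNA cluster, 9 of 107 genes were detected, with a share of 0.126% ± 0.0433 and Mir467d as the highest (492 CPM ± 129, n = 2). Of the 107 genes, 104 share a stretch of 20 bases with another gene, so these levels are lower limits. None of the 13 Mir344 genes was detected (20 and 16 counts in all), but 12 of them share such a stretch, so this too is a lower limit. Mir184 had 5.93 CPM ± 0.381 (SD, n = 2). All these imprinted loci together held 41.9% and 45.1% of counts. The share of the Dlk1-Dio3 domain was higher in replicate 2 and that of Mir335 higher in replicate 1.

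**Figure D3:**
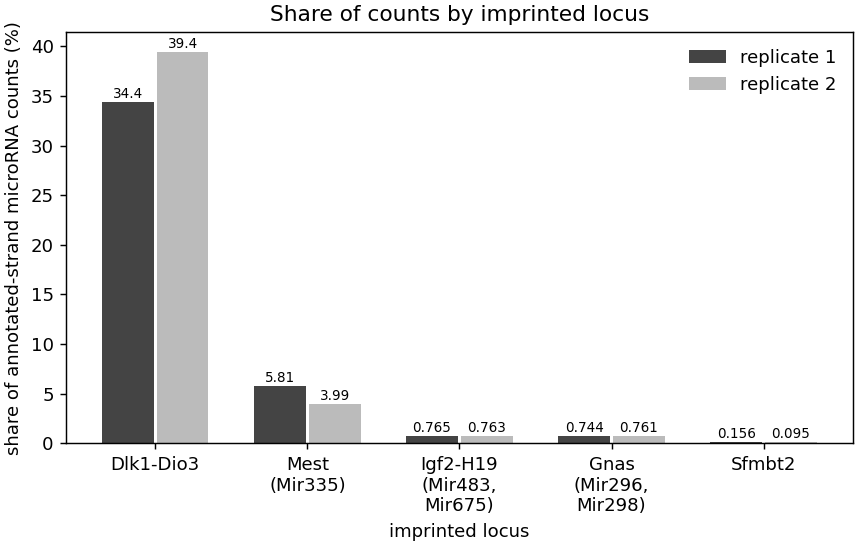
Share of all annotated-strand microRNA counts (%) taken by each imprinted locus in replicate 1 (dark) and replicate 2 (light). Dlk1-Dio3 took 34.4% and 39.4%, Mir335 in Mest 5.81% and 3.99%, and the Igf2-H19 and Gnas pairs between 0.744% and 0.765%.

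Within 1 Mb of the 3 loci, microRNA genes other than the 5 were detected only around Mir335. There 6 are annotated. Of these, 4 were detected (365 of 1973 over all genes), all on the other strand. Mir29a, 321 kb downstream, was the highest with 163 CPM ± 25.3 (SD, n = 2), 301-fold below Mir335. Mir182 and Mir183, of a cluster known from sensory cells, lie 575 and 572 kb upstream and had 86.2 ± 76.8 and 59.5 ± 25.7 CPM.

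Around Mir483 and Mir675 no other gene was detected. Mir7063 had 7 and 13 counts, Mir7064 had 9 and 7, and Mir3104 had 0 in both. Around Mir298 and Mir296, Mir6340 and Gm27591 had 0 counts in both libraries. Apart from each other, the genes of these 2 regions thus had no neighbour above 13 counts.

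**Figure D4:**
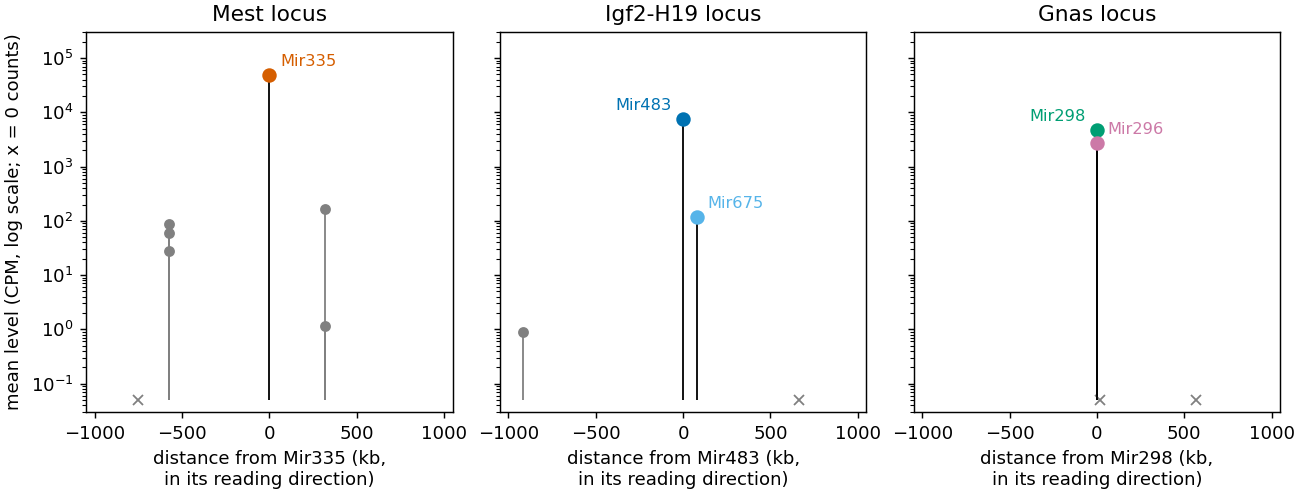
Mean level (CPM, log scale) of every annotated microRNA gene within 1 Mb of Mir335, Mir483 and Mir298, against the distance between midpoints in kb in the reading direction of that gene, with crosses for 0 counts. The nearest detected gene that is not one of the 5 is Mir29a, 321 kb from Mir335, at 163 CPM.

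For all 5 genes the counts lay almost entirely in 1 of the 2 strand columns, the one taken as the annotated strand because it holds most counts over all genes. Counts in the other column, called opposite-strand, were 1 and 4 for Mir335 and 3 and 1 for Mir675, and 0 in both libraries for Mir483, Mir298 and Mir296, or 7.64e-04% of the counts of the 5 genes. Over all genes that column held 10.7% and 11.9% of counts. More than 1% of a gene's counts fell there for 12 of the 365 detected genes. Detection rests on annotated-strand counts, so genes read almost only in the other column are not among the 365. Examples are Mir142b (7306 and 6286 counts there) and Mir497b (5384 and 5822).

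How far the libraries differ was measured as the ratio of replicate 1 to replicate 2 after scaling by trimmed means (TMM), which shifts every log2 ratio by -0.25 against library totals. The log2 ratio of Mir335 was 0.30 (95% counting interval 0.29 to 0.30), or 1.23-fold, and 0.54 with library totals. Those of Mir483, Mir298, Mir296 and Mir675 were -0.24, -0.22, -0.38 and -0.31. With library totals they were 0.0046, 0.026, -0.14 and -0.06, so the direction of Mir483 and Mir298 depends on the scaling.

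Each gene was tested by a two-sided exact binomial test of its split of counts, with Benjamini-Hochberg adjustment across the 365. No gene of the 5 was called different, for which a 2-fold ratio and an adjusted p below 0.05 were needed. By that rule 7.4% of detected genes were called, 23 higher in replicate 1 and 4 in replicate 2, or 41 and 1 with library totals. On the adjusted p alone all 5 passed, where 61.1% of all detected genes did. With library totals, an alternative chosen after seeing the data, 3 of 5 passed by that rule, where 64.4% of detected genes did, and Mir483 (binomial adjusted p 0.629) and Mir675 (0.393) did not. This test allows for counting error alone. The test compares 2 libraries and not conditions. An exact test in edgeR used a common dispersion (biological coefficient of variation 0.257) estimated from the same libraries. This edgeR exact test gave unadjusted p between 0.468 and 0.679 and adjusted p of 1 for all 5. Its dispersion takes in the difference that is tested, so moderate ratios could hardly pass and no likeness follows. Over all 365 genes it called 6 higher in replicate 1 and 0 in replicate 2.

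Abundant genes were lower in ratio than genes as a whole. The median log2 ratio was -0.23 over the 84 genes whose mean reached 1000 CPM and 0.01 over all 365 with TMM, and 0.01 and 0.26 with library totals. Mir483 and Mir298 lay near -0.23 with TMM. Mir335 had the highest ratio of the 20 most abundant genes, of which 3 were above 0 with TMM and 8 with library totals. Over all 365 its TMM ratio was not extreme, since 47.4% had a smaller one in either direction. The SD of its CPM of library totals was 26.2% of its mean. A larger one was found for 11 of the 84 abundant genes (median 9.81%) and 116 of all 365 (median 16.5%).

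**Figure D5:**
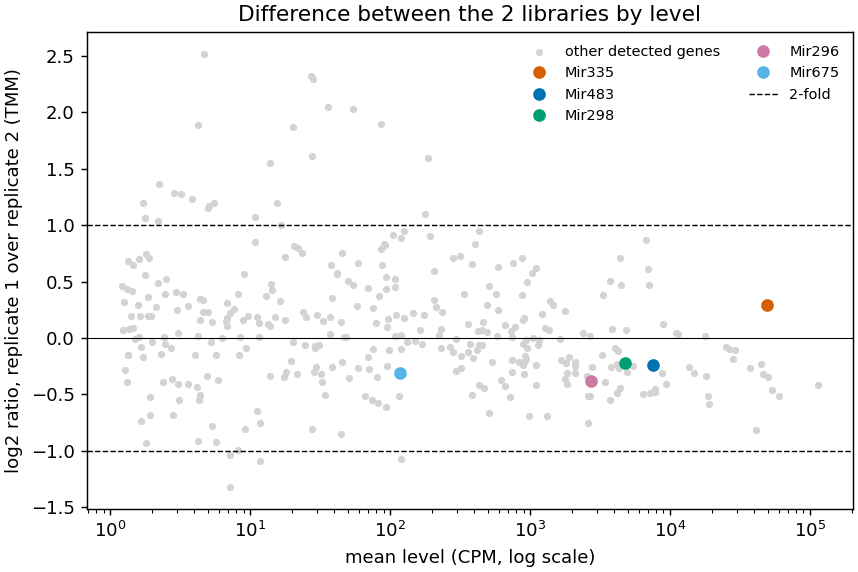
Log2 ratio of replicate 1 over replicate 2 after TMM scaling against mean level (CPM, log scale) for the 365 detected genes, with dashed lines at 2-fold. The imprinted-gene microRNAs lie inside the lines, Mir335 at 0.30 and the others between -0.38 and -0.22, where Mir483 and Mir298 move just above 0 with library totals.

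Several marker lists were higher in replicate 1, as Mir335 was. The erythroid list summed to 583 and 286 CPM (2 of 2 genes higher in replicate 1, log2 ratio of the sums 0.78 with TMM) and the epithelial and skin list to 531 and 334 CPM (5 of 7, 0.42). The fibroblast and mesenchymal list summed to 6717 and 5017 CPM (4 of 4, 0.18), a lower limit since 3 of its genes share a 20-base stretch with another. None of their genes was at 0. For the 1 heart gene the log2 ratio was 0.11. For the leukocyte list it was 0.11 too, with Mir223 at 0.14 and Mir150 at -0.21. Mir182 and Mir183, upstream of Mir335, had log2 ratios of 1.89 and 0.67. Mir29a, downstream and the highest detected neighbour of Mir335, had one of 0.07. Lists that were lower in replicate 1 were the liver list (135 and 206 CPM, 0 of 2 genes higher) and endothelium (log2 ratio -0.32). So was skeletal muscle (1 of 4, log2 ratio of the sums -0.41), its sum nearly all Mir206. The directions of these list sums were the same with library totals, while smooth muscle (-0.10) and cartilage (-0.08) changed theirs to 0.15 and 0.16. The counts of genes above are with TMM, and single genes could change. With library totals, Mir150 and Mir133b moved from below 0 to 0.031 each. Epithelial Mir203 and Mir205 moved from below 0 to 0.12 and 0.18. The part of any of these in the difference of Mir335 was not tested.

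Predicted folding energy per base, computed with RNAfold from the RefSeq hairpins, ran from -0.452 kcal/mol for Mir335 through -0.463 for Mir483, -0.521 for Mir298 and -0.547 for Mir296 to -0.667 for Mir675. Mir675 thus has the most stable hairpin of the 5, and 2.19% of the 1005 hairpins in the table are more stable per base. Per base, the order of stability is the reverse of the order of levels, a pattern noticed after the values were seen. It does not hold for the energy of the whole hairpin, which was -44.3 kcal/mol for Mir335, -33.8 for Mir483, -42.7 for Mir298, -43.2 for Mir296 and -56.0 for Mir675. Over 317 detected genes with a hairpin in the table, Spearman's rho between mean level and energy per base was -0.07. Its sign is opposite to the per-base pattern of the 5 genes. With GC content rho was -0.13. These 317 genes share the libraries and are not independent.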

How the data were processed

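The authors deposited, for each of 2 libraries, raw counts of reads per microRNA gene on either strand and on each strand, on mm10 with GENCODE M4 per the file headers in the readme. For aligner, counter and the strand of each column the entry is: not given in the sources used here. The column holding most counts was taken as the annotated strand. Reads in 4 rows that name no gene (unmapped 16.0% and 13.4%, several places 28.01% and 26.9%, no feature 1.60% and 1.43%, ambiguous 0%) stayed out of totals and tests. Symbols and positions came from GENCODE M21 (GRCm38, the same assembly) for 1894 of 1973 IDs. The 5 genes, lists and tests were chosen with earlier results of these data known.

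CPM use annotated-strand totals of 7955914 and 10816295 counts. TMM factors (1.09 and 0.918) came from edgeR 4.0.16 in R 4.3.3, size factors from DESeq2 1.42.0. Detected genes had at least 10 counts in both libraries, and 365 were tested by exact binomial tests (scipy 1.17.1). On simulated libraries of 365 genes this called 100% of 50 genes raised 3-fold, 98.0% of 50 lowered 3-fold and 0% of 165 unchanged ones. The test was checked with counting noise only. The libraries are not copies of each other (chi-square 209472 on 364 degrees of freedom). Named besides the 5 genes were the 2 nearest in level for each, detected neighbours within 1 Mb (up to 3), sharers of a seed (0 found) and the highest gene of each other imprinted locus. Markers were matched by symbol, and Mir142 and Mir9-1 were not found. Hairpins were folded with RNAfold 2.7.2. Alternatives were unstranded counts, other denominators, scalings, count and fold minimums, an edgeR exact test, a window of 100 kb and each replicate left out.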

Additional observations from a re-analysis of the deposited data

Results flagged for a closer look

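Mir335 had 4 counts on its opposite strand in replicate 2, above the 3 counts that a count of 0 allows, in a column outside the main measurement. Beside its 431669 annotated-strand counts in that library this is a trace, and replicate 1 had 1.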

How the results depend on the processing

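The order of the 5 genes rests on ratios within a library, and all 10 ratios moved by less than their SD with unstranded counts. The order was the same in each replicate alone. Levels in CPM moved with the denominator. As CPM of all reads, Mir335, Mir483, Mir298, Mir296 and Mir675 had 24350, 3757, 2406, 1355 and 58.5. For Mir483, Mir298, Mir296 and Mir675, unstranded counts gave 6671, 4273, 2402 and 104 CPM, a total without Mir206 gave 8488, 5436, 3058 and 132, and a total without genes that share a 20-base stretch gave 9011, 5771, 3247 and 140. Without those genes, their ranks became 23, 32, 50 and 137. For Mir335 the same changes gave 43515, 55223 and 58607 CPM, each less than its SD of 12855 from its mean. Its rank without those genes became 3. The number of the 5 genes called between libraries was 0 in each alternative with a fold minimum and by the edgeR exact test. With no fold minimum it was 5, and 3 when library totals were used as well, an alternative chosen after seeing the data. Over all genes the calls were 41 and 1 with library totals, 52 and 20 with a 1.5-fold minimum, 110 and 113 with none, 175 and 60 with none and library totals, 13 and 2 with at least 50 counts, and 6 and 0 by the edgeR exact test. With at least 1 count, 2 were higher in replicate 2. The log2 ratio became 0.0046 for Mir483 and 0.026 for Mir298 with library totals, above 0 because TMM's shift is absent. A window of 100 kb held 0 detected neighbours of Mir335. With 2 libraries of 1 group and 1 donor record, spread between animals cannot be told from technical spread.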
